A study of Mus musculus with 5 samples.

Results

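The transcripts described here encode the subunits of the receptors for glutamate, GABA and glycine in mouse brain. Members were the probe sets with exactly 1 gene symbol in the array annotation whose symbol started with Gria, Grid, Grik, Grin or Grm followed by a digit, or with Gabr, Glra or Glrb. This gave 85 of the 45037 non-control probe sets on the array and 43 of the 18193 genes named there by a single symbol. Of these genes, 42 encode receptor subunits. The remaining one, Grid2ip, matches the pattern by its name only and encodes a scaffold protein of Purkinje cell synapses. A further 8 receptor genes that match the pattern in the gene table used here had no member and were not analysed here, so no class below is complete. The GABA-B receptors lie outside the pattern.

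The arrays measured brain RNA in 3 groups. RNA that bound in vitro to the deiminated form of MA-Brent-1, an mRNA export factor of the REF/Aly family that some titles call REFP2, was measured on 2 arrays, RNA that bound to the non-deiminated form on 2 arrays, and the starting RNA before any binding, called input here, on 1 array. Deimination converts arginine in a protein to citrulline, and the design asks which transcripts bind each form of the protein. The labels give brain as the only source for all groups, with no strain, age or sex, and 1 non-deiminated array is titled a biological repeat, so the p-values measure nothing but the spread between these particular samples, which may be technical.

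Glutamate carries most fast excitation in the brain, through ion channels of the AMPA, kainate and NMDA classes, and also acts more slowly through the metabotropic receptors, which couple to G proteins. GABA and glycine carry fast inhibition through chloride channels built from several subunits, whose choice sets where in the brain and where on the neuron the receptor works. Glycine receptors serve mainly the spinal cord and brainstem, and the rho subunits of the GABA-A family are known mainly from the retina.

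The signals are on the linear MAS5 scale, on which every array had been scaled to the same trimmed mean. Over the whole array the median signal was 29.8 and 37.5 in deiminated RNA, 30.5 and 41.4 in non-deiminated RNA, and 102 in input. The hybridisation controls, which are added in fixed amounts, averaged 10.59 and 12.60 log2 in deiminated RNA, 10.08 and 13.04 in non-deiminated RNA and 17.04 in input. The beta-actin 3' signal was 29.8 to 55.6 times its 5' signal on the bound arrays and 234 times in input. For Gapdh the order was the opposite, with a ratio of 17.4 to 31.9 on the bound arrays and 2.71 in input, and the part of RNA quality in the results below was not tested. Markers of brain cells were read without a detection call. Some were dim, such as Tubb3 at 8.56 and Mag at 17.9 in input. Over all genes 22.3% were called higher and 30.9% lower in bound RNA than in input. Of 7 neuronal markers 5 were called higher in bound RNA than in input, and their summed signal was 14490 to 17210 on the bound arrays against 4060 in input. Of 4 oligodendrocyte markers 3 were called higher, with summed signals of 16570 to 48100 on the bound arrays against 32570 in input. Most of these sums came from Mbp, which was not called, with 10830 to 42150 on the bound arrays and 31940 in input. Of 5 microglial markers 1 was called higher and 1 lower, with summed signals of 3340 to 4274 on the bound arrays against 2028 in input. Most of these sums came from Csf1r, with 2948 to 3909 on the bound arrays and 1508 in input. The other 4 microglial markers had negative differences. Of 4 endothelial markers 0 were called higher and 2 lower, with summed signals of 795 to 1026 on the bound arrays against 1057 in input. Of 5 markers of liver, pancreas, heart, muscle and kidney, none was called higher and 3 were called lower in bound RNA, with summed signals of 61.7 to 158 on the bound arrays against 795 in input. The labels name brain and no cell type, so these arrays cannot tell which cells a transcript came from.

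The deiminated and non-deiminated forms were compared first. No receptor transcript differed between them at an adjusted p under 0.05 in limma, in either direction, as was the case for the 45037 probe sets as a whole, with 0% called in each direction. At an unadjusted p under 0.05, limma gave 1 of the 85 members, against 923 probe sets (2.05%) over the whole array. The median log2 difference, deiminated minus non-deiminated, was -0.03 over the 85 members and -0.03 over all probe sets. Both deiminated signals lay above both non-deiminated signals for 11 members (11.6% of all probe sets did so) and below them for 8 (14.7% of all probe sets did so). By the brightest probe set of each gene this held for 7 of the 43 genes above (11% of all genes) and 5 below (14.3% of all genes).

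The precision of this comparison differed between members. The 95% interval of the difference lay within 2-fold in either direction for 23 of the 85 members and within 4-fold for 61, against 7344 and 28253 of the 45037 probe sets. These 23 include the principal AMPA subunits. Gria1 encodes the AMPA subunit GluA1, which is delivered to synapses during potentiation, and its log2 difference was 0.00 (95% interval -0.77 to 0.78). Gria2 encodes the subunit whose edited form makes AMPA receptors impermeable to calcium, and its log2 difference was 0.32 (-0.34 to 0.98). For the cerebellar granule cell subunits Gabra6 and Gabrd the differences were 0.12 (-0.56 to 0.80) and 0.26 (-0.42 to 0.95). In these members a difference of 2-fold or more lies outside the interval, and a smaller one could not be told from 0.

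**Figure D1:**
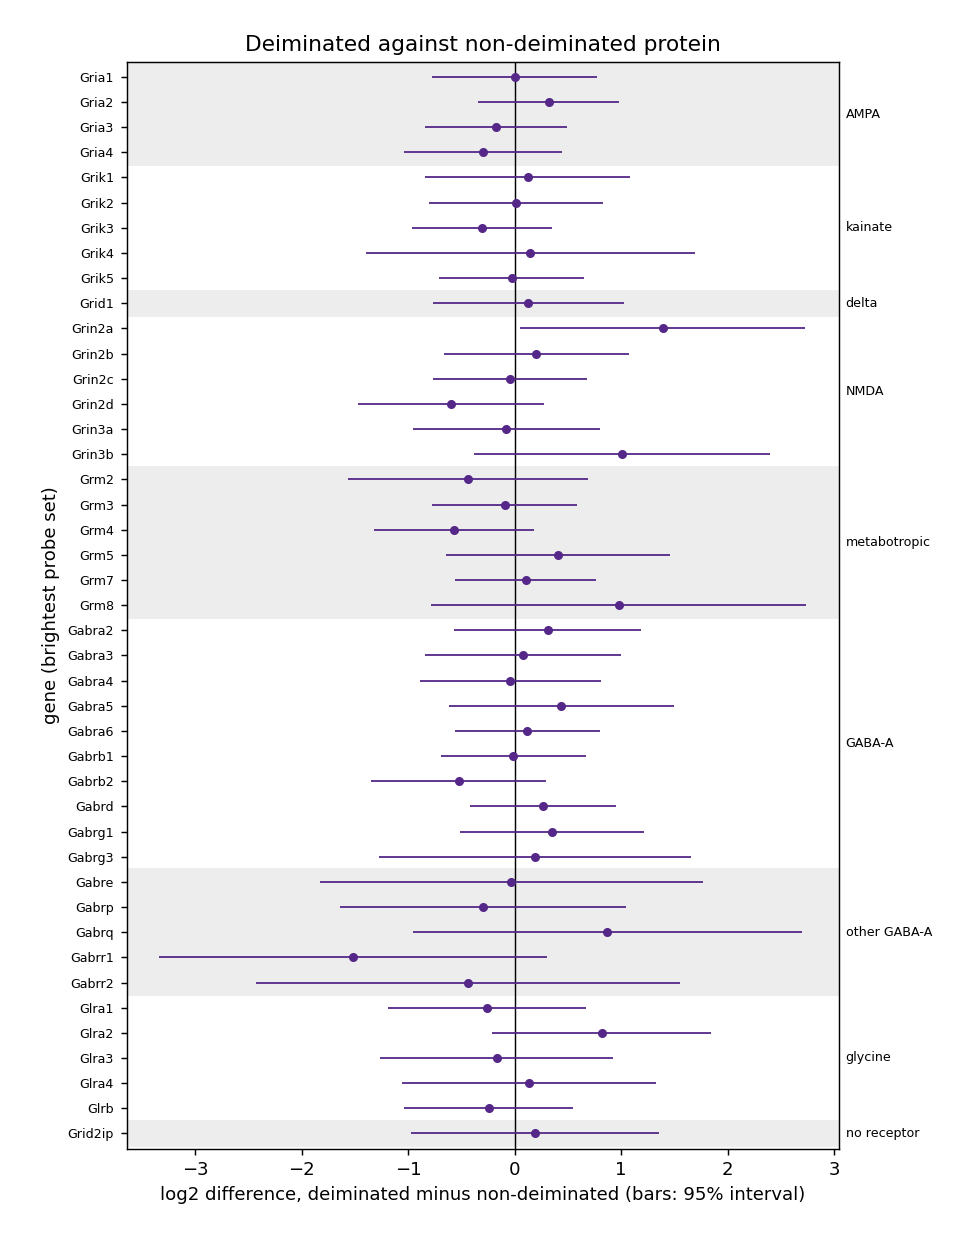
Log2 difference in signal, deiminated minus non-deiminated, for the brightest probe set of each of the 43 genes, grouped by receptor class. Points are limma estimates and bars their 95% intervals (2 arrays per group); only the bar of Grin2a does not cross 0, before adjustment for multiple tests.

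Among genes whose brightest probe set separated the groups, those with the largest moderated t were Grin2a, Grin3b and Grm8 on the higher side and Gabrr1, Grm4 and Grin2d on the lower side, and none of them passed. Grin2a, the GluN2A subunit of mature NMDA receptors, had signals of 6.61 and 18.0 in deiminated RNA, 0.478 and 3.29 in non-deiminated RNA and 15.6 in input. All 5 of these signals lie below the median of their array. Its log2 difference was 1.39 (95% interval 0.05 to 2.73, adjusted p = 1.0). Grin3b, an NMDA subunit known mainly from motor neurons, had 42.6 and 63.0 in deiminated RNA and 35.1 and 15.6 in non-deiminated RNA, a log2 difference of 1.01 (-0.39 to 2.40). Grm8, a presynaptic metabotropic receptor, had 23.6 and 19.8 in deiminated RNA, against 18.1 and 3.53 in non-deiminated RNA, and a log2 difference of 0.98 (-0.79 to 2.74). In Grm8 the difference rests on the low signal of 1 non-deiminated array.

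On the lower side the signals were also small for Gabrr1 but not for the other genes. Gabrr1, the rho1 subunit, had 5.80 and 3.26 in deiminated RNA and 11.0 and 36.1 in non-deiminated RNA, and its log2 difference was -1.52 (95% interval -3.34 to 0.30). Grm4, a presynaptic receptor known from cerebellar parallel fibres, had 209 and 130 in deiminated RNA and 219 and 280 in non-deiminated RNA, a log2 difference of -0.57 (-1.32 to 0.18). Grin2d, the GluN2D subunit of early development and of interneurons, had 79.7 and 106 in deiminated RNA, against 107 and 185 in non-deiminated RNA, with a log2 difference of -0.60 (-1.47 to 0.28). In Grm4 and Grin2d the nearest signals of the 2 groups differed by less than the replicates of either group did. The other Grin2d probe set had a log2 difference of 0.70 (-1.16 to 2.55), the opposite sign.

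**Figure D2:**
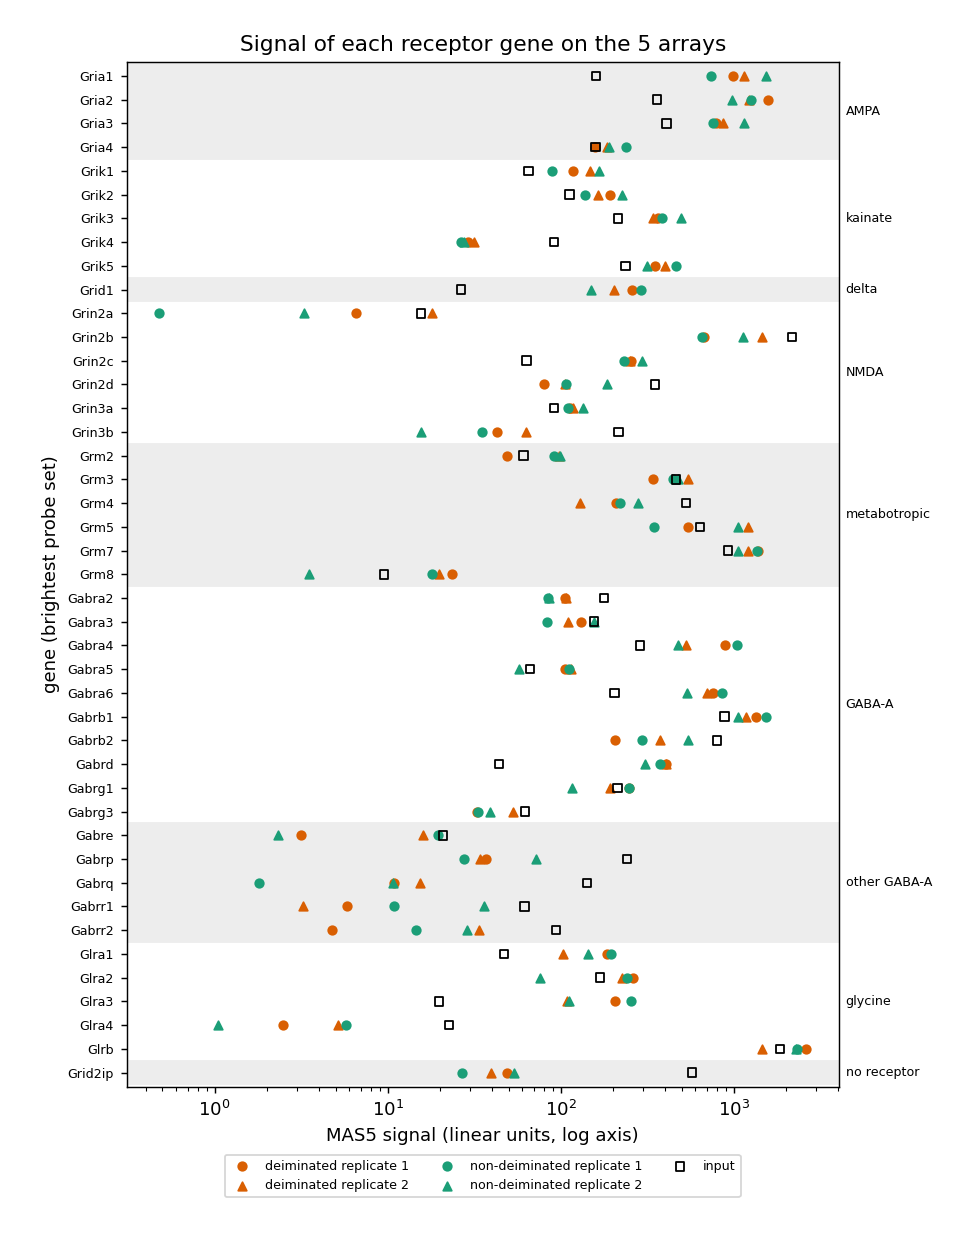
MAS5 signal on a log axis of the brightest probe set of each of the 43 genes on each array, grouped by receptor class; orange points are deiminated arrays, green points non-deiminated arrays and open squares the input array. Orange and green points lie among each other for most genes, while the input square lies left of the bound points for Gria1, Grid1, Gabrd and Glra3 and right of them for Grin2d, Gabrp, Gabrq and Grid2ip.

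The bound arrays were then set against the input array, as the mean of the deiminated and non-deiminated group means minus the input value. Of the 85 members, 18 were called higher in bound RNA (21.2%), where 15.6% of all probe sets were, and 28 were called lower (32.9%), where 36.2% of all probe sets were. The median log2 difference was -0.34 over the members and -0.92 over all probe sets. These figures change with a filter on mean signal. That mean is taken over 5 arrays, 4 of them bound, so the filter itself favours probe sets that are high in bound RNA. The following counts are a description. Past a filter at the 40th percentile of mean signal, 17 of 56 members were higher (26.8% of all probe sets there) and 15 lower (29.8%). Their median was 0.377, against -0.202. Past the 70th percentile 16 of 42 members were higher (40.3% of all probe sets there) and 7 lower (14.7%). Here the medians were close, at 0.576 and 0.535. When each gene was represented by its brightest probe set, 11 of the 43 genes were called higher (22.3% of all genes were) and 9 lower (30.9% of all genes were), with a median of 0.20 against -0.50 over all genes. All 4 bound signals lay above the input signal for 30 members (25.2% of all probe sets) and below it for 41 (54.7% of all probe sets), and by the brightest probe set for 18 genes above (32.8% of all genes) and 16 below (48.6% of all genes). The input is a single array assumed to vary like the bound arrays, and the split depends on scaling: 39.1% of the members' calls were higher as deposited, 57.4% after quantile normalisation, 79.1% after median centring, 46.4% after cyclic loess and 100% after scaling to the hybridisation controls. That last scaling moved the median of all probe sets to 4.54.

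Each bound group gave similar counts, and both were set against the same input array. Against input, 17 members were called higher in deiminated RNA (14.6% of all probe sets were) and 27 lower (32.7% were). In non-deiminated RNA 18 were called higher (14.4% of all probe sets) and 23 lower (30.8%).

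The AMPA receptor genes, which carry the fast part of excitatory transmission, were more often higher than lower in bound RNA. Among their 10 probe sets 6 calls were higher (60%, where 15.6% of all probe sets were) and 2 were lower (20%, against 36.2%), though after cyclic loess only 3 were higher and 1 was lower. Past the 70th percentile of mean signal 5 of 8 were higher (40.3% of all probe sets there) and 1 was lower (14.7%). The median log2 difference was 1.32, which lay 2.24 above that of all probe sets. It was 1.41 after quantile normalisation (1.43 above) and 0.14 after cyclic loess (0.29 above). Median centring and hybridisation control scaling shift all probe sets alike, so they could not change the distance of 2.24. Gria1 had signals of 992 and 1145 in deiminated RNA, 736 and 1543 in non-deiminated RNA and 160 in input. All 4 bound signals stood above the input signal, and the log2 difference was 2.70 ± 0.40 (SE, adjusted p = 0.000301). Gria2 had 1571 and 1228 in deiminated RNA, 1265 and 979 in non-deiminated RNA and 360 in input, with a log2 difference of 1.78 ± 0.34 (adjusted p = 0.00159). This call was lost after cyclic loess, where the log2 difference was 0.40. Gria3, which encodes GluA3, was also called higher, by 1.10 ± 0.34 log2 (adjusted p = 0.0185). Gria4, the GluA4 subunit known from fast-spiking interneurons and cerebellum, had 159 and 185 in deiminated RNA, 238 and 189 in non-deiminated RNA and 159 in input, a log2 difference of 0.26 ± 0.38 that did not pass. Its other probe sets were called in opposite directions. Probe set 1440891_at, with 54.3 to 153 on the bound arrays and 11.7 in input, was higher by 2.41 ± 0.71 log2 (adjusted p = 0.0144). Probe set 1421351_at, with 10.6 to 30.95 on the bound arrays and 149.9 in input, was lower at a log2 difference of -2.60 ± 0.85 (adjusted p = 0.0233).

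The kainate receptor genes, whose products modulate release and excitability, gave 1 call higher (12.5%) and 3 lower (37.5%) among 8 probe sets, shares near the 15.6% and 36.2% of all probe sets. Their median was -0.45 and turned positive after quantile normalisation (0.49), median centring and hybridisation control scaling. Grik3, the GluK3 subunit, had 368 and 340 in deiminated RNA, 386 and 497 in non-deiminated RNA and 215 in input, with no overlap between bound and input. The log2 difference was 0.86 ± 0.34 (adjusted p = 0.0478), a call lost under most alternatives and without either deiminated replicate or without non-deiminated replicate 2, where the adjusted p was 0.135, 0.101 and 0.0521. Grik2, the GluK2 subunit that forms kainate receptors on its own, had 193 and 164 in deiminated RNA, 138 and 225 in non-deiminated RNA and 112 in input. All 4 bound signals exceeded the input signal, yet the log2 difference of 0.64 ± 0.42 did not pass (adjusted p = 0.224). Its other probe set, 1425790_a_at, had 3.46 and 1.68 in deiminated RNA, 2.93 and 2.41 in non-deiminated RNA and 69.6 in input, and was called lower at a log2 difference of -3.44 ± 0.63 (adjusted p = 0.00122). Of the delta receptors only Grid1, a synapse organiser that binds cerebellin, was analysed here. It had 259 and 203 in deiminated RNA, 292 and 150 in non-deiminated RNA and 26.6 in input, higher by 2.86 ± 0.46 log2 (adjusted p = 0.000548). Its other probe set was at 12.6 or less on every array and was not called.

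The NMDA receptor genes, which encode the coincidence detectors of synaptic plasticity, were more often lower than higher in bound RNA, as were all probe sets. Of 12 probe sets, 6 passed as lower (50%, where 36.2% of all did) and 1 as higher (8.33%, against 15.6%), and the median was -1.40, against -0.92 for all probe sets. The NMDA median minus that of all probe sets was -0.49, and it was -1.51 after quantile normalisation and -1.10 after cyclic loess. Median centring and hybridisation control scaling shift all probe sets alike, so they could not change this distance. The NMDA median itself was positive after both (0.05 and 4.05). Grin2c, the cerebellar granule cell subunit GluN2C, was the one gene of the class called higher by its brightest probe set. It had 255 and 252 in deiminated RNA, 232 and 295 in non-deiminated RNA and 63.4 in input, higher by 1.96 ± 0.37 log2 (adjusted p = 0.00159). The remaining NMDA genes past the test lay the other way. Grin2d had 79.7 and 106 in deiminated RNA, 107 and 185 in non-deiminated RNA and 351 in input, and was lower at a log2 difference of -1.59 ± 0.45 (adjusted p = 0.012). Grin3b had 42.6 and 63.0 in deiminated RNA, 35.1 and 15.6 in non-deiminated RNA and 216 in input, and was lower at a log2 difference of -2.48 ± 0.72 (adjusted p = 0.0132). Neither call held after median centring, and both differences turned positive after hybridisation control scaling.

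Grin2b, the forebrain subunit GluN2B, had 4 probe sets, of which 3 were called lower. The brightest, 1457003_at, had 677 and 1463 in deiminated RNA, 657 and 1134 in non-deiminated RNA and 2168 in input, and was lower at a log2 difference of -1.22 ± 0.45 (adjusted p = 0.0367). Median centring and hybridisation control scaling shift all probe sets alike, moving their median from -0.92 to 0.54 and 4.54. Both scalings turn this difference positive. Probe set 1442370_at had 183 and 420 in deiminated RNA, 148 and 410 in non-deiminated RNA and 9178 in input, and was lower at a log2 difference of -5.11 ± 0.53 (adjusted p = 2.34e-05). In both, the higher signal within each bound group was that of replicate 2, which was also the array with the higher hybridisation control level.

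**Figure D3:**
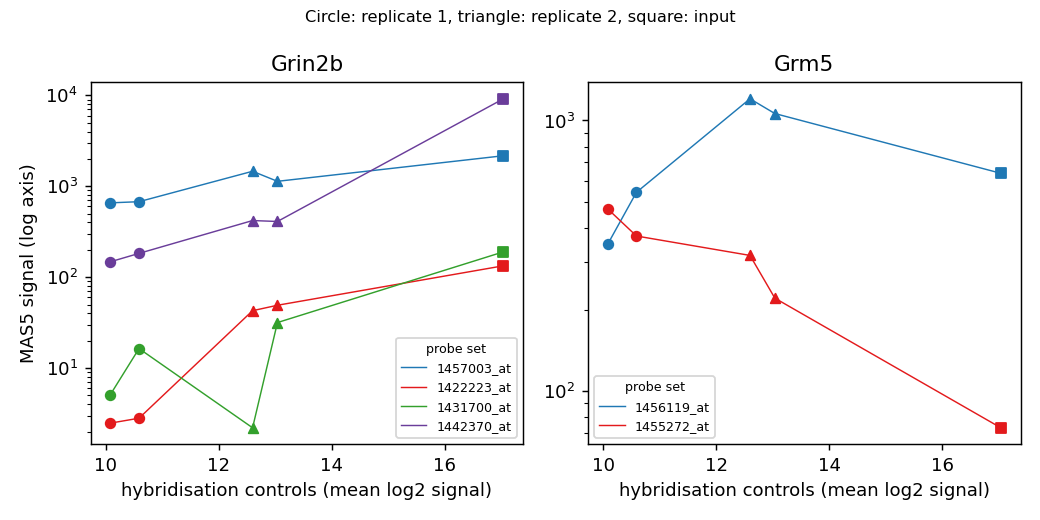
MAS5 signal (log axis) of every probe set of Grin2b and Grm5 against the mean log2 signal of the hybridisation controls on the same array, which was 10.59 and 12.60 (deiminated), 10.08 and 13.04 (non-deiminated) and 17.04 (input). Circles are replicate 1 and triangles replicate 2 of the bound groups, squares the input; the Grm5 probe sets run in opposite directions along this axis among the bound arrays.

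The metabotropic glutamate receptor genes gave few calls, with 1 of 9 probe sets higher (11.1%, against 15.6% of all probe sets) and 2 lower (22.2%, against 36.2%). Their median of 0.14 turned to -0.69 after quantile normalisation and -0.98 after cyclic loess. Grm4 had 209 and 130 in deiminated RNA, 219 and 280 in non-deiminated RNA and 532 in input, and was lower at a log2 difference of -1.38 ± 0.39 (adjusted p = 0.0114), which turned to 0.08 after median centring and 4.08 after hybridisation control scaling. Grm5, the postsynaptic receptor that acts through phospholipase C, had 543 and 1203 in deiminated RNA, 348 and 1061 in non-deiminated RNA and 638 in input for its brightest probe set, 1456119_at. Bound and input overlapped, and the log2 difference of 0.14 ± 0.54 did not pass. Its other probe set, 1455272_at, had 374 and 317 in deiminated RNA, 472 and 220 in non-deiminated RNA and 73.1 in input, higher by 2.13 ± 0.43 log2 (adjusted p = 0.00207). Within each bound group the order of the replicates was opposite between these 2 probe sets of the same gene. Grm2, Grm3, Grm7 and Grm8 did not pass with their brightest probe sets, whose differences lay between -0.06 and 0.43.

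The alpha, beta, gamma and delta subunit genes of the GABA-A receptor, the main inhibitory channel of the brain, gave 5 probe sets higher (17.2%, against 15.6% of all probe sets) and 8 lower (27.6%, against 36.2%) of 29. Their median of -0.31 turned to 0.73 after quantile normalisation and was also positive after median centring and hybridisation control scaling. By the brightest probe set 3 of 10 genes were higher and 1 was lower. Gabrd, the delta subunit of extrasynaptic receptors, had 407 and 408 in deiminated RNA, 373 and 307 in non-deiminated RNA and 43.9 in input, higher by 2.96 ± 0.35 log2 (adjusted p = 6.9e-05). Gabra6, the alpha6 subunit that is nearly confined to cerebellar granule cells, had 761 and 704 in deiminated RNA, 851 and 534 in non-deiminated RNA and 205 in input, higher by 1.75 ± 0.35 log2 (adjusted p = 0.00199). The bound signals of both genes stood clear of the input signal. After cyclic loess Gabra6 was no longer called, with a log2 difference of 0.53. Gabra4, the usual partner of the delta subunit in forebrain, was higher by 1.27 ± 0.44 log2 (adjusted p = 0.0291). Its other probe set, 1429330_at, had the opposite sign, at -0.63 ± 0.39, and did not pass. That probe set had 257 to 559 on the bound arrays and 526.5 in input.

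Gabrb2, a widespread beta subunit, was the one gene of this class that was lower by its brightest probe set. It had 206 and 374 in deiminated RNA, 296 and 543 in non-deiminated RNA and 800 in input, a log2 difference of -1.25 ± 0.42 (adjusted p = 0.0262). The call was lost without deiminated replicate 1 (adjusted p = 0.0534) and without non-deiminated replicate 1 (adjusted p = 0.0526), and the log2 difference was 0.21 after median centring. Gabrb2 had 5 probe sets, of which 2 were called lower and 1 higher. The higher one, 1429685_at, had 250 and 190 in deiminated RNA, 245 and 208 in non-deiminated RNA and 69.7 in input. Its log2 difference was 1.61 ± 0.39 (adjusted p = 0.00564). Gabra6 and Gabrb2 are direct neighbours among protein-coding genes of the gene table used here (GRCm38.p6). By their brightest probe sets they lay on opposite sides of the input. The members held 7 such neighbouring pairs, and by the brightest probe sets 3 had no call in either gene, 3 had a call in one of the genes and 1, Gabra6 with Gabrb2, had calls in opposite directions. Gabrr2 and Gabrr1, for example, lay at log2 differences of -2.20 and -2.18, and Gabra4 and Gabrb1 at 1.27 and 0.52.

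The remaining GABA-A genes, which encode the epsilon, pi, theta and rho subunits, had low bound signals. Of 6 probe sets none was called higher and 3 were called lower (50%, where 36.2% of all probe sets were), with a median of -2.34. All 4 bound signals lay below the input signal in all 6, as they did for 54.7% of all probe sets. This median was negative in every scaling except hybridisation control scaling, where it was 3.12. Gabrq, the theta subunit of hypothalamus and brainstem, had 10.9 and 15.5 in deiminated RNA, 1.80 and 10.8 in non-deiminated RNA and 142 in input, and was lower at a log2 difference of -3.51 ± 0.94 (adjusted p = 0.00915). Gabrp, the pi subunit known mainly from tissues outside the brain, had 37.2 and 34.3 in deiminated RNA, 27.5 and 71.8 in non-deiminated RNA and 242 in input, and was lower at a log2 difference of -2.47 ± 0.69 (adjusted p = 0.0111). Neither call held after median centring or cyclic loess. Gabrr1 and Gabrr2 had log2 differences of -2.18 ± 0.94 and -2.20 ± 1.02 that did not pass. The pi and rho genes, known as little expressed in whole brain, had 4 probe sets in all with a median of -2.34, and the retina marker genes Crx, Arr3 and Gnat1, of which 2 were called lower, had summed signals of 30.0 to 132 on the bound arrays against 682 in input.

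Among the glycine receptor genes 3 of 8 probe sets passed as higher (37.5%, against 15.6% of all probe sets) and 3 as lower (37.5%, against 36.2%), and the median of 0.15 turned to -0.12 after cyclic loess. Glra3, the alpha3 subunit of dorsal horn and retina, had 207 and 109 in deiminated RNA, 254 and 112 in non-deiminated RNA and 19.8 in input, higher by 2.77 ± 0.56 log2 (adjusted p = 0.00226). Glra1, the adult alpha1 subunit mutated in startle disease, had 185 and 104 in deiminated RNA, 195 and 143 in non-deiminated RNA and 47.2 in input, higher by 1.61 ± 0.48 log2 (adjusted p = 0.0153). Both stood above the input on all 4 bound arrays, but the Glra1 call was lost without deiminated replicate 1 (adjusted p = 0.0594). Glrb, the beta subunit that anchors the receptor to gephyrin, was the member with the highest bound signal, at 2624 and 1457 in deiminated RNA, 2331 and 2307 in non-deiminated RNA and 1851 in input. Its log2 difference of 0.20 ± 0.41 did not pass, with 1 bound array below the input. The other Glrb probe set, 1422504_at, had 690 and 437 in deiminated RNA, 753 and 416 in non-deiminated RNA and 152 in input, and was called higher by 1.84 ± 0.40 log2 (adjusted p = 0.00324). Glra4 had 2.48 and 5.19 in deiminated RNA, 5.71 and 1.04 in non-deiminated RNA and 22.7 in input, and was lower at a log2 difference of -1.83 ± 0.61 (adjusted p = 0.0253), a call made on signals below the median of every array.

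Grid2ip, the member that is no receptor, had 49.2 and 39.5 in deiminated RNA, 26.8 and 53.8 in non-deiminated RNA and 575 in input. It was lower at a log2 difference of -3.68 ± 0.60 (adjusted p = 0.00058).

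Where a gene had several probe sets, the result often depended on which one was read. Of the 26 member genes with several probe sets, 8 had one called higher and another called lower in bound RNA (30.8%), against 1808 of 9010 genes on the array (20.1%), and the signs differed in 16 (61.5%, against 56.8%). The 8 genes were Gria2, Gria4, Grik3, Gabrb1, Gabrb2, Gabrd, Glra1 and Glra3. Gabrb1, the beta1 subunit, showed the widest gap: probe set 1435095_at had 254 and 335 in deiminated RNA, 248 and 128 in non-deiminated RNA and 5.26 in input, higher by 4.62 ± 0.49 log2 (adjusted p = 3.05e-05). Probe set 1443834_at of the same gene had 12.8 and 5.77 in deiminated RNA, 3.04 and 21.4 in non-deiminated RNA and 290 in input, and was lower at a log2 difference of -4.47 ± 1.01 (adjusted p = 0.00395). The brightest Gabrb1 probe set, 1419719_at, lay between them and was not called, with 1355 and 1173 in deiminated RNA, 1532 and 1057 in non-deiminated RNA and 884 in input.

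The brightest probe set of a gene was chosen by its mean over 5 arrays, 4 of them bound, so the choice itself favours probe sets that are high in bound RNA, and the following counts are a description. Of the 26 brightest, 38.5% were called higher and 15.4% lower, against 30.7% and 24.5% over all genes with several probe sets. Of the 42 others, 16.7% were called higher and 45.2% lower, against 13.7% and 35.9%. For Gabrd the other probe set was lower at a log2 difference of -3.70 ± 1.08, for Glra1 at -3.61 ± 1.00, for Glra3 at -3.99 ± 1.05 and for Grik3 at -3.74 ± 0.82, each against a brightest probe set that was called higher. In all 4 genes the lower probe set had bound signals of 36.9 or less and input signals of 128 to 192. Gria2 differed, in that its lower probe set, 1453098_at, kept clear bound signals of 180 and 224 (deiminated) and 192 and 208 (non-deiminated), against 477 in input. Over all members called lower, 21 of 28 had all 4 bound signals under 100, and the median input signal was 204. For the 18 members called higher the bound signals ran from 54.3 to 1571 and the median input signal was 103.

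**Figure D4:**
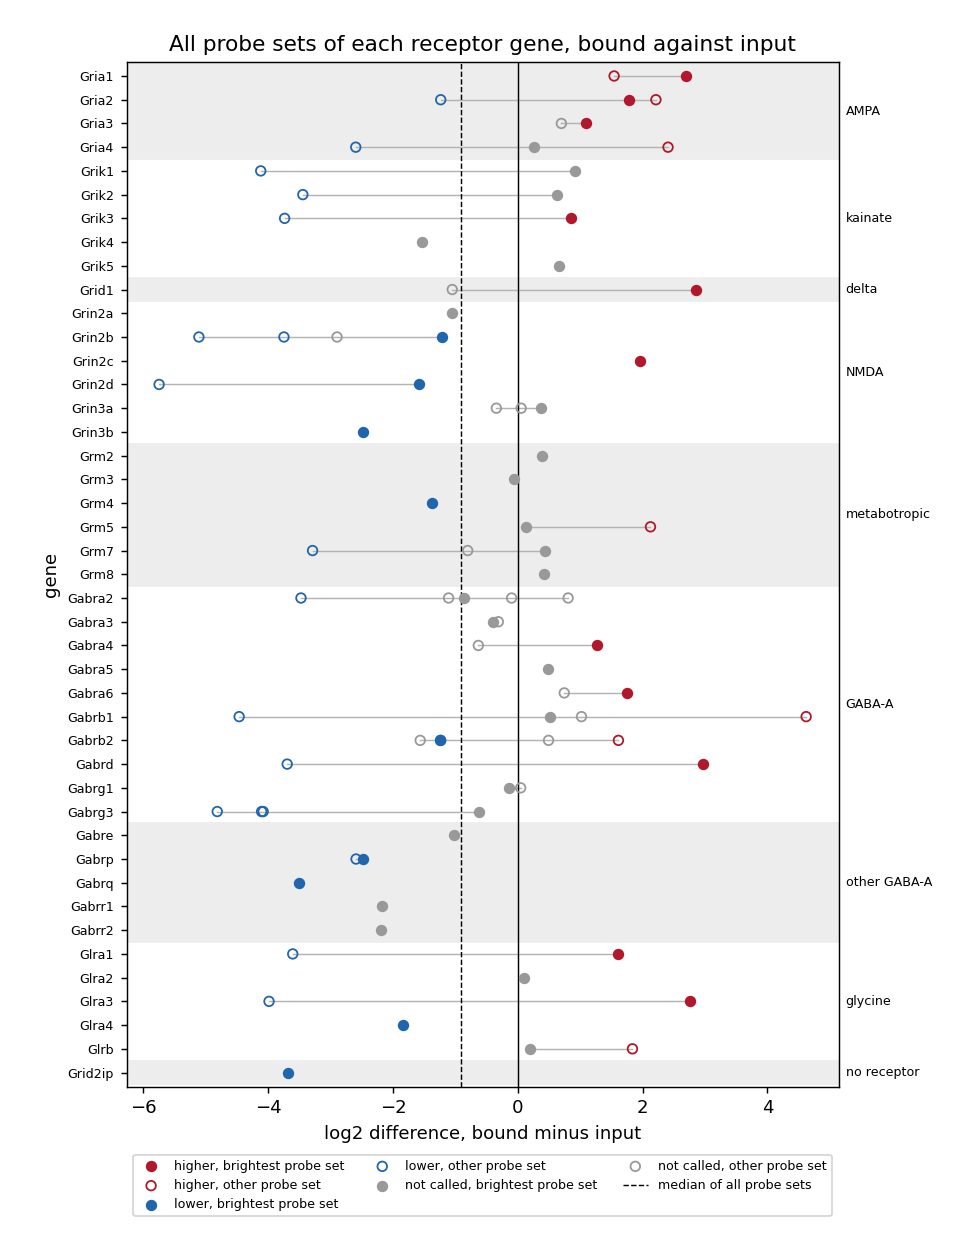
Log2 difference in signal, bound minus input, for all 85 probe sets, one line per gene and grouped by receptor class; filled points are the brightest probe set of a gene, open points the others, red called higher, blue called lower and grey not called at an adjusted p of 0.05. The dashed line marks the median of all probe sets (-0.92), and the grey bars that join red to blue points mark genes such as Gabrb1, Gabrd and Glra3 whose probe sets were called both ways.

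Other genes of the same synapses were described from lists of auxiliary subunits, scaffold and trafficking proteins, transmitter enzymes and transporters and GABA-B receptors. Of 50 measured genes 18 were called higher in bound RNA than in input (36%, where 22.3% of all genes were) and 4 lower (8%, against 30.9%), with a median of 0.64 against -0.50 over all genes, and 0 were called between deiminated and non-deiminated RNA by limma, where 1 had an unadjusted p under 0.05. The dependence of these counts against input on scaling and on the brightness of the probe sets was not tested. The GABA-B subunit Gabbr1 was higher by 1.61 ± 0.34 log2. Of 12 auxiliary subunits, Shisa9 (3.29 ± 0.32) and Lhfpl4 (1.32 ± 0.33), partners of AMPA and GABA-A receptors, were higher and the AMPA partner Cacng7 was lower (-3.59 ± 0.64). Of 24 scaffold and trafficking genes 10 were higher, led by Gabarap (4.47 ± 0.33), which binds the GABA-A gamma subunit, and the vesicle fusion ATPase Nsf (3.95 ± 0.36). Dlg4 (-1.71 ± 0.47) and Shank3 (-1.09 ± 0.33), scaffolds of the excitatory postsynapse, were lower, as was Shank1. Of 13 transmitter enzyme and transporter genes 5 were higher and none was lower. By moderated t these were led by Abat (3.79 ± 0.46), which degrades GABA, and Slc32a1 (2.57 ± 0.33). Slc1a2 (3.17 ± 0.45), the main glutamate transporter of astrocytes, was also higher. The astrocyte markers, a list that also holds Slc1a2, had 3 of 5 genes higher and summed signals of 15930 to 20690 on the bound arrays against 5976 in input, and their part in these results was not tested.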

How the data were processed

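The deposited table holds 1 signal intensity per probe set and array, on a linear scale, made by the authors with MAS5 per the submitters' processing notes. The MAS5 version was not given in the sources used here. Each array's mean, trimmed by 2% at each end, is the same. Before log2, a pseudocount of 4.18 was added, a 10th of the median of all values (41.8), so differences of dim probe sets are understated. The 64 control probe sets were left out and no filter on low values was used, so all 85 members were tested. Of the members, 56 would pass a filter at the 40th percentile of mean signal. Gene names came from the platform annotation, and all 85 symbols matched the gene table used here (GRCm38.p6). Of the tested probe sets 932 had several symbols and 9160 none.

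Group means were fitted to all 5 arrays with limma 3.58.1 in R 4.3.3 (lmFit, eBayes with a trend, 2 residual and 10.24 prior degrees of freedom). Benjamini-Hochberg adjustment ran over 45037 probe sets, and called means an adjusted p under 0.05. Errors are standard errors and intervals cover 95%. Precision is limited by the number of arrays. The model was also run on simulated data with the noise of the primary fit and the same spread for the input array. That run could not test the assumption made about the single input array. Each gene is represented by its probe set with the highest mean log2 signal. Named genes were Gria2, Grik2, Grm5, Glra1 and Glrb, up to 2 called genes per class and direction by moderated t against input, and up to 3 per direction between the bound groups whose signals did not overlap. In the synapse lists up to 2 per direction were named by the same measure. Gria3, Gria4, Gabra4, Gabrb1, Grin2b, Gabrr2, Shank1, Slc1a2, the other uncalled genes and single probe sets were added after their values were seen. The members and lists were chosen with earlier results of these data known. Alternatives were the pseudocount (1.05 and 16.7), filters at the 40th and 70th percentile, quantile normalisation, median centring, cyclic loess, scaling to 18 hybridisation control probe sets, no variance trend, array weights, the mean over a gene's probe sets, for the bound groups also the 4 bound arrays alone, a block for the protein name in the title and a covariate for the control level, and leaving out each bound array.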

Additional observations from a re-analysis of the deposited data

How the results depend on the processing

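Between deiminated and non-deiminated RNA, 0 members passed under every alternative run, as in the primary fit. The replicate numbers were given in accession order and pair no arrays, so they were not used as a block. A block for the protein name in the titles, which sets each deiminated array beside a non-deiminated one, and a covariate for the hybridisation control level also gave 0 members called. In the comparisons with input, scaling moved the counts most. Median centring gave 34 members higher and 9 lower in bound RNA, 33 and 8 in deiminated RNA, and 31 and 9 in non-deiminated RNA. Cyclic loess gave 15 lower in bound RNA, 8 higher and 14 lower in deiminated RNA, and 8 higher and 9 lower in non-deiminated RNA. Hybridisation control scaling gave 0 lower in all 3, with 1 higher in deiminated and 2 in non-deiminated RNA. Quantile normalisation gave 26 higher in deiminated RNA. Without a variance trend 9 were higher in deiminated and 8 in non-deiminated RNA. Filters at the 40th and 70th percentile left 15 and 7 lower in bound, 14 and 6 in deiminated, and 11 and 3 in non-deiminated RNA, with fewer probe sets tested. Leaving out 1 bound array gave 16 to 19 higher and 24 to 33 lower in bound RNA, 12 to 15 and 19 to 22 in deiminated RNA, and 15 to 17 and 16 to 23 in non-deiminated RNA.

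Among the named genes, without those added after their values were seen, the sign of the bound minus input difference turned in these cases. Under hybridisation control scaling the lower genes became positive: Grin2d 3.87, Grin3b 2.98, Grm4 4.08, Gabrb2 4.20, Gabrq 1.94, Gabrp 2.98, Glra4 3.62 and Grid2ip 1.78. Median centring turned Grm4 to 0.078 and Gabrb2 to 0.21, and cyclic loess turned Glra4 to 0.007 and Grik3 to -0.085. The mean over all probe sets turned Gabrd to -0.37, Glra1 to -1.0, Glra3 to -0.61 and Grik3 to -1.44, and the uncalled Grik2 to -1.40. Grm5 became -0.84 after quantile normalisation, -1.17 after cyclic loess, and ran from -0.26 without non-deiminated replicate 2 to 0.53 without non-deiminated replicate 1 (-0.15 without deiminated replicate 2). Glrb became -0.88 after quantile normalisation, -1.27 after cyclic loess, and ran from -0.009 without deiminated replicate 1 to 0.41 without deiminated replicate 2. The cause of these changes was not tested. With their sign kept, 5 of the named differences lost their call after cyclic loess, 5 after median centring, 5 without a variance trend and 3 after quantile normalisation, while 3 gained one after median centring. Signals near the pseudocount, as in Grin2a and Glra4, limit what these arrays can show.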
